A study of Mus musculus with 15 samples.

Results

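A set of 10 genes of the liver's sinusoidal endothelium (Stab1, Stab2, Lyve1, Clec4g, Oit3, Fcgr2b, Gpr182, Pecam1, Cdh5 and Kdr) was followed in the livers of 15 female C57BL/6 mice from the National Institute on Aging colony. The 10 genes were taken as a named list, found by matching symbols to the Ensembl identifiers of the deposited count table, and are 10 of its 55450 genes. All 10 were among the 15808 genes with enough counts to be tested. Adult mice were 6 months old and Old mice were 22 months old at the start, and both received corn oil by daily gavage. PDX mice were also 22 months old and received protectin DX, a lipid mediator made from docosahexaenoic acid, at 30 ng per g body weight in the same oil. The gavage lasted 9 weeks according to the sample descriptions, while the series text says 8 weeks. There were 5 mice per group, each sequenced once from polyadenylated RNA of whole liver, so that p-values measure the spread between mice. The libraries are named A1 to A5 (Adult), O1 to O5 (Old) and P1 to P5 (PDX) and held 22424383 to 36070835 counted read pairs. Each of the 10 genes had between 164 and 3701 read pairs in every library.

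Liver sinusoids are lined by endothelial cells that have open pores (fenestrae) and lack an organised basement membrane, so that plasma reaches the hepatocytes directly. These cells clear waste from the blood through scavenger and lectin receptors, take up immune complexes and hyaluronan, and send growth signals to hepatocytes. When they lose this state, a change called capillarisation, they come to resemble the endothelium of continuous capillaries.

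The promoter sequences of the scavenger receptor Stab2, the lectin Clec4g and the VEGF receptor Kdr are shown because, of the 10 genes, these were lowest relative to Adult in the Old mouse O5. They are the 250 bases upstream of the RefSeq start on the minus strand of GRCm38.p6, written 5′ to 3′ along the gene, at chr10:87007943-87008192 for Stab2, chr8:3720652-3720901 for Clec4g and chr5:75978456-75978705 for Kdr. Promoters of this kind were matched by symbol for 5 of the 10 genes. Capitals mark the letters AGGAAG or their reverse complement CTTCCT, a core that ETS factors of endothelial cells are known to bind, and matches may overlap.
Stab2: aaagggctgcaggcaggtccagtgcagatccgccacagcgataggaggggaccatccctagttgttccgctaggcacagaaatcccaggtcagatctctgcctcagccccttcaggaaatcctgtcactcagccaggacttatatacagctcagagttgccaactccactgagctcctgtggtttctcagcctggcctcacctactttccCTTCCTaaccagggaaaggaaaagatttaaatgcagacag
Clec4g: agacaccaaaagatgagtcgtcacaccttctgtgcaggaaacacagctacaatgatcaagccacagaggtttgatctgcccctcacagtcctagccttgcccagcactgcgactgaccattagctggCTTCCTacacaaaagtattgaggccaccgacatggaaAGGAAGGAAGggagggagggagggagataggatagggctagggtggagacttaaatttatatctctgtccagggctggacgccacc
Kdr: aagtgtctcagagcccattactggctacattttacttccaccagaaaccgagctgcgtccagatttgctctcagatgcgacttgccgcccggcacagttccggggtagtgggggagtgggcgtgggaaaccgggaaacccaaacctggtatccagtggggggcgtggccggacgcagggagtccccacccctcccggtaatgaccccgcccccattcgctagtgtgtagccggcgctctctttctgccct
The ETS letters occurred 1 time in the Stab2 promoter, 3 times in that of Clec4g and 1 time in that of Stab1, and there were 0 matches for Fcgr2b and Kdr. Of all 32851 promoters of this length, 29.5% held them on either strand. The letters AGATAA or TTATCT, a core known for GATA factors, had 0 matches in the 5 promoters and were found in 9.99% of all promoters. These matches describe the letters in the window and nothing about binding.

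All 10 genes were detected in every library. Levels are CPM, read pairs scaled to a common library size after TMM normalisation, and between genes RPKM, which is CPM divided by the exon length in kb. By RPKM, Clec4g was highest in Adult at 32.7 ± 1.09 (SD, n = 5). Oit3 (14.7 ± 1.47) and Fcgr2b (11.4 ± 1.14) followed, and their ranges over the mice overlapped. Cdh5 (9.81 ± 0.517), Gpr182 (9.30 ± 1.37) and Stab2 (9.01 ± 0.382) came next, overlapped one another and, for Gpr182, also Fcgr2b. Stab1 (7.02 ± 0.407) and Kdr (6.71 ± 0.610) were close to each other and below the range of Stab2. Pecam1 (4.51 ± 0.318) and Lyve1 (3.26 ± 0.869) had the lowest RPKM and overlapped each other. In Old the same order could not be read, because each gene overlapped its neighbour in the list, Clec4g included (5.39 to 36.1 RPKM). In PDX Clec4g (23.8 to 36.2 RPKM) again stood clear of the next gene, Cdh5 (10.3 to 16.9 RPKM).

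The livers of mice O2 and O5 differed from the others in many genes. Their sums of 8 hepatocyte marker genes were 80340 and 87266 CPM, against 129520 to 144099 CPM in Adult, 134441 to 212224 CPM in O1, O3 and O4, and 124386 to 173256 CPM in PDX. O2 had a Kupffer cell marker sum of 4825 CPM over 12 genes, where Adult ranged from 639 to 933 CPM, and O5 had 571 CPM. Each of these mice stood at an end of some physical measures in the labels. O5 had the highest frailty index (0.56) and the lowest wheel running (0.0399 km per day). O2 had the shortest treadmill distance (33.9 m), but also the lowest frailty index of the Old mice (0.11). The results of the 10 genes are given with and without these mice, and the part of these features in the results was not tested.

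The effect of age was read from Old against Adult. By edgeR's quasi-likelihood test 0 of the 10 genes were called at an adjusted p of 0.05 (their adjusted p lay between 0.108 and 0.947), where 6.78% of all tested genes were (4.71% higher and 2.07% lower in Old). DESeq2 and limma on the variance-stabilised values also called 0 of the 10. At an unadjusted p of 0.05, 4 of the 10 were lower (Stab1, Stab2, Oit3 and Kdr) and 0 were higher, while 27.7% of all tested genes met that limit. The median log2 fold change over the 10 genes was -0.34, with 7 negative and 3 positive values, against a median of 0.07 over all tested genes. Scaled by library totals alone, the median was -0.26 with 6 negative values. In whole liver, fewer endothelial cells and less RNA of these genes per cell cannot be told apart.

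Among the scavenger receptors, Stab1 (stabilin-1, ENSMUSG00000042286, chr14:31139013-31168641, minus strand, GRCm38) clears modified lipoproteins and matrix fragments. It had 65.6, 75.3, 75.8, 73.7 and 70.7 CPM in Adult, 64.6, 63.7, 56.9, 62.0 and 44.1 CPM in Old, and 81.8, 71.3, 77.0, 62.5 and 65.8 CPM in PDX (mice 1 to 5 in each group, here and in the other lists of values). Every Old mouse was below every Adult mouse, with the nearest pair of values 64.6 and 65.6 CPM, and O5 was the lowest of all 15. The log2 fold change of Old over Adult was -0.31 ± 0.12 (SE, adjusted p = 0.108), and -0.23 ± 0.10 without O2 and O5.

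Stab2 (stabilin-2, ENSMUSG00000035459, chr10:86841198-87008025, minus strand), the main receptor through which sinusoids clear hyaluronan, had 79.2, 76.1, 76.5, 84.4 and 78.0 CPM in Adult, 58.2, 72.1, 75.1, 53.9 and 22.5 CPM in Old, and 64.5, 65.0, 69.7, 62.9 and 64.4 CPM in PDX. All 5 Old and all 5 PDX mice lay below the lowest Adult mouse, and O5 had 28.5% of the Adult mean. The Adult and PDX mice were tightly grouped (CV 4.24% and 3.97%) and the Old mice were not (CV 37.2%). Old over Adult had a log2 fold change of -0.49 ± 0.22 (adjusted p = 0.173). Without O2 and O5 this was -0.33 ± 0.10 (adjusted p = 0.0666), the smallest adjusted p among the 10 genes in that fit.

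Stab1 and Stab2 were the 2 of the 10 genes whose Old and Adult ranges did not overlap in CPM, a pattern seen in 8.13% of all tested genes. With CPM on library totals instead of TMM-scaled totals, 0 of the 10 were separated, and 7.56% of all tested genes. Without O2 and O5, 2 of the 10 were separated, where 16% of all tested genes were, and 0 were called, where 7.12% of all tested genes were called in that fit.

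Lyve1 (ENSMUSG00000030787, chr7:110850607-110863239, minus strand), a hyaluronan receptor shared with lymphatic endothelium, went the other way in the Old mice that stood apart. Its values were 9.19, 9.83, 13.6, 7.76 and 7.17 CPM in Adult, 8.83, 22.9, 10.4, 6.09 and 31.2 CPM in Old, and 21.0, 11.3, 9.27, 6.97 and 10.2 CPM in PDX. O5, O2 and P1 were above all Adult mice and the other mice lay between 6.09 and 13.6 CPM. Old over Adult was 0.74 ± 0.41 (adjusted p = 0.247) with all mice and -0.16 ± 0.31 (adjusted p = 0.794) without O2 and O5. The lymphatic chemokine gene Ccl21a had a CPM of 0 in all 15 mice. In counts of uniquely aligned pairs a 0 does not show that its RNA was absent. The 3 tested lymphatic markers were Pdpn, Mmrn1 and Prox1, and 0 of them were called by edgeR in any contrast. The list's summed level was 60.3 to 114 CPM in Adult, where Lyve1 had 7.17 to 13.6 CPM. Which cells this RNA came from was not tested. In Old against Adult 2 of the 3 had an unadjusted p under 0.05 and DESeq2 called 1, with a median log2 fold change of 0.89. In PDX against Old all 3 had an unadjusted p under 0.05, with a median of -1.12, and DESeq2 and limma called 0. Their part in the Lyve1 values was not tested.

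Of the 10 genes Clec4g lay furthest below the Adult mean in O5. Clec4g (ENSMUSG00000074491, chr8:3707064-3720651, minus strand), a C-type lectin known as LSECtin, had 76.9, 79.9, 83.9, 79.7 and 82.2 CPM in Adult, 88.8, 32.7, 63.1, 73.6 and 13.3 CPM in Old, and 89.1, 80.5, 83.7, 58.7 and 78.9 CPM in PDX. O5 and O2 were at 16.5% and 40.6% of the Adult mean, and O1 was above every Adult mouse. The log2 fold change of Old over Adult was -0.57 ± 0.34 (adjusted p = 0.296) with all mice and -0.09 ± 0.13 without O2 and O5.

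Oit3 (ENSMUSG00000009654, chr10:59422958-59441778, minus strand), a secreted protein with a zona pellucida domain that is used as a sinusoidal marker, had 35.2, 42.0, 46.6, 40.3 and 40.6 CPM in Adult, 35.4, 24.2, 36.1, 30.7 and 15.3 CPM in Old, and 42.8, 32.4, 43.8, 26.8 and 34.3 CPM in PDX. O1 and O3 were just above the lowest Adult mouse, so the ranges overlapped, and the other 3 Old mice were below all Adult mice. The log2 fold change was -0.53 ± 0.20 (adjusted p = 0.109) and became -0.25 ± 0.15 without O2 and O5.

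Fcgr2b (ENSMUSG00000026656, chr1:170958617-170976547, minus strand) is the inhibitory IgG receptor with which sinusoids take up small immune complexes, and B cells and macrophages also make it. It had 59.7, 61.4, 64.2, 67.0 and 76.5 CPM in Adult, 71.7, 96.2, 59.4, 60.6 and 34.9 CPM in Old, and 74.0, 53.3, 72.2, 51.7 and 65.3 CPM in PDX. O2 was the highest and O5 the lowest of all 15 mice, and the group means were close (log2 fold change -0.03 ± 0.21, adjusted p = 0.947, and -0.03 ± 0.13 without O2 and O5). In O2 the B cell marker sum was 131 CPM, against 7.15 to 13.1 CPM in Adult, beside the Kupffer cell sum given above. The B cell sum of O3 was 100.5 CPM, and its Fcgr2b value of 59.4 CPM was just below the lowest Adult mouse. Fcgr2b shares near-identical sequence with Fcgr3, so its count of uniquely aligned pairs is less certain than those of the other genes.

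Gpr182 (ENSMUSG00000058396, chr10:127747276-127751732, minus strand), an atypical chemokine receptor of sinusoids and lymphatics, had 33.1, 32.4, 39.9, 33.7 and 44.9 CPM in Adult, 41.7, 24.7, 32.9, 29.1 and 14.5 CPM in Old, and 49.6, 29.2, 39.4, 28.4 and 33.6 CPM in PDX. O5, O2 and O4 were below the Adult range, while O1 and O3 were within it. The log2 fold change was -0.36 ± 0.23 (adjusted p = 0.321) with all mice and -0.08 ± 0.18 without O2 and O5.

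Among the endothelial adhesion and growth factor genes, Pecam1 (CD31, ENSMUSG00000020717, chr11:106654217-106750628, minus strand), a junction protein of all endothelium, had 30.4, 25.7, 29.3, 28.7 and 26.4 CPM in Adult, 21.9, 36.8, 34.9, 25.0 and 30.0 CPM in Old, and 33.4, 31.8, 42.3, 28.2 and 29.1 CPM in PDX. It was the member with O5 closest to the Adult mice, inside their range, and the lowest value of all 15 was that of O1. Old over Adult was 0.08 ± 0.15 (adjusted p = 0.762), and -0.03 ± 0.16 without O2 and O5.

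Cdh5 (VE-cadherin, ENSMUSG00000031871, chr8:104101625-104144511, plus strand), the adhesion protein of endothelial junctions, had 42.8, 38.0, 42.4, 40.0 and 42.9 CPM in Adult, 34.1, 108, 49.6, 34.2 and 22.4 CPM in Old, and 54.7, 51.8, 71.2, 55.8 and 43.2 CPM in PDX. O2 was far above and O5 below all other mice, and 3 of the 5 Old mice were below the Adult range. The log2 fold change of Old over Adult was 0.27 ± 0.31 (adjusted p = 0.609) with all mice and -0.06 ± 0.15 without O2 and O5.

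Kdr (VEGFR2, ENSMUSG00000062960, chr5:75932827-75978458, minus strand), the receptor that passes on the VEGF-A signal, had 54.2, 56.6, 63.2, 68.2 and 60.7 CPM in Adult, 48.3, 33.0, 56.1, 52.2 and 21.4 CPM in Old, and 53.8, 47.3, 53.2, 38.9 and 49.6 CPM in PDX. O3 was the 1 Old mouse inside the Adult range. The log2 fold change was -0.52 ± 0.21 (adjusted p = 0.119) and became -0.20 ± 0.11 (adjusted p = 0.294) without O2 and O5.

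**Figure D1:**
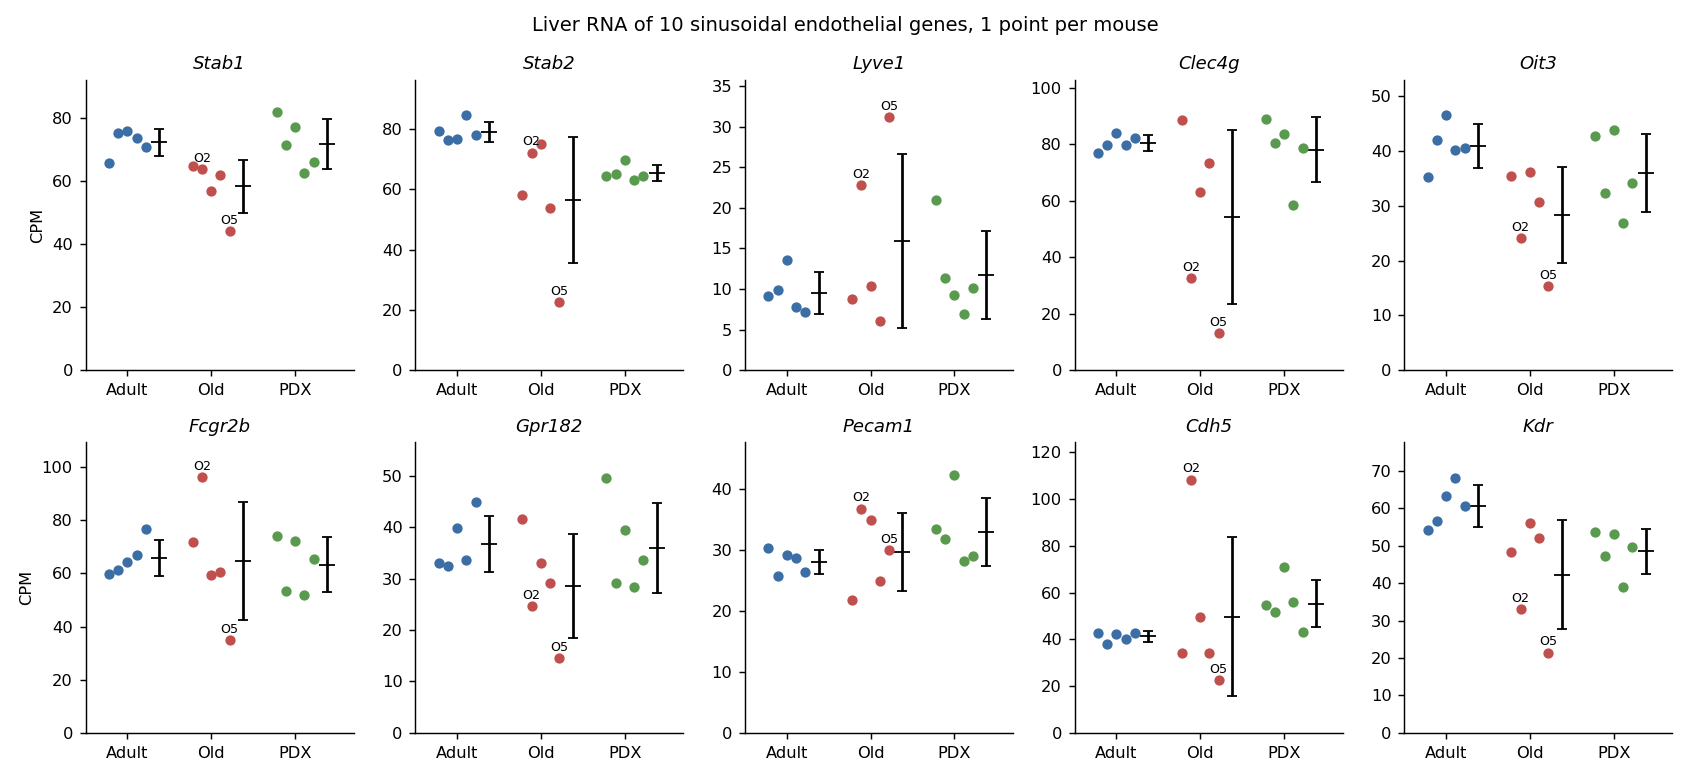
CPM (vertical axis, linear, from 0) of each of the 10 genes in every mouse, by group, with the mean ± SD of 5 mice as a bar beside the points and O2 and O5 named. O5 is the lowest of the 15 mice in 8 panels and the highest for Lyve1, and O2 is the highest for Fcgr2b and Cdh5.

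Seen by mouse, the summed level of the 10 genes was 486 to 535 CPM in Adult and 421 to 565 CPM in PDX. The Old sums were 473, 515, 475, 427 and 249.7 CPM for O1 to O5. O5 had the lowest value of the 15 mice in 8 of the 10 genes, the exceptions being Lyve1 and Pecam1, and its median log2 ratio to the Adult mean was -1.13. O2 had nearly the Adult sum but another composition, from -1.30 for Clec4g to 1.39 for Cdh5 on the same scale. O4 was below the Adult mean in 10 of 10 genes, with a median log2 ratio of -0.25, and O1 and O3 were below it in 7 of 10 each. With O2 and O5 left out the Old mean was lower than the Adult mean in all 10 genes, by a median log2 fold change of -0.12, with 0 called and 2 at an unadjusted p of 0.05, a limit that 24.6% of all tested genes met in that fit.

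**Figure D2:**
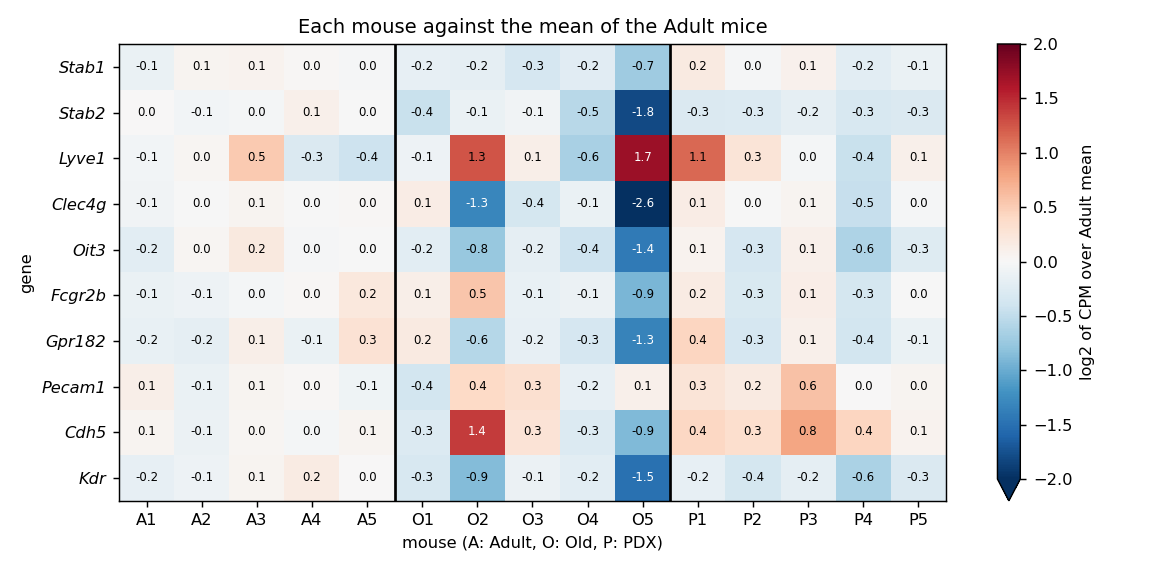
Log2 ratio of each mouse's CPM to the Adult mean (colour and printed value) for the 10 genes (rows) in the 15 mice (columns), with lines between the groups and the colour scale ending at -2. O5 is low in 8 rows, O2 is mixed, and the column of O4 is below 0 throughout.

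Ratios between members do not depend on library scaling and were computed after the values were seen, so they are descriptions. The Clec4g to Cdh5 count ratio was 1.79 to 2.10 in Adult, 0.302 in O2, 0.592 in O5, 1.27 or higher in the other Old mice and 1.05 to 1.82 in PDX. The Kdr to Pecam1 ratio was 1.78 to 2.38 in Adult and 1.26 to 1.71 in PDX, which did not overlap, and 0.714 to 2.21 in Old. The Stab2 to Stab1 ratio was 1.01 to 1.21 in Adult and 0.509 to 1.32 in Old, and in PDX it ran from 0.788 up to 1.01, just under the lowest Adult value. The Lyve1 to Stab2 ratio overlapped between Adult (0.0919 to 0.178) and PDX (0.111 to 0.325) and was 0.113 to 1.39 in Old. The Clec4g to Fcgr2b ratio also overlapped between Adult (1.07 to 1.31) and PDX (1.14 to 1.51) and was 0.339 to 1.24 in Old.

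The effect of the treatment was read from PDX against Old. None of the 10 genes was called by edgeR (adjusted p between 0.793 and 0.978), by DESeq2 or by limma on the variance-stabilised values, and 0% of all tested genes passed in edgeR's test. Over all genes, DESeq2 called 1 and limma 0. At an unadjusted p of 0.05 there was 1 of the 10, Stab1, with a log2 fold change of PDX over Old of 0.30 ± 0.12, against 5.28% of all tested genes. The groups overlapped for all 10 genes (0 separated), where 0.342% of all tested genes were separated.

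The fold changes of PDX over Old were positive for 8 of the 10 genes, with a median of 0.21 against -0.07 over all tested genes. Clec4g (0.53 ± 0.34), Oit3 (0.35 ± 0.20), Gpr182 (0.33 ± 0.23), Stab2 (0.21 ± 0.22) and Kdr (0.20 ± 0.21) were all within 2 SE of 0. Pecam1 and Cdh5 had 0.15 ± 0.15 and 0.15 ± 0.31, Fcgr2b had -0.03 ± 0.21 and Lyve1 had -0.44 ± 0.40. Leaving out O2 and O5 took the median to 0.08. Clec4g then had 0.06 ± 0.13, Oit3 0.09 ± 0.15 and Gpr182 0.07 ± 0.18, while Kdr (-0.10 ± 0.11) and Lyve1 (0.48 ± 0.31) changed sign. Stab1 stayed at 0.24 ± 0.10, and Cdh5 had 0.50 ± 0.16 with an adjusted p of 0.344 (unadjusted p = 0.0061). Both comparisons with Old share the 5 Old mice, so a low Old value enters each of them.

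PDX mice were also set against Adult mice, a comparison that joins age with treatment. With all 15 mice in the fit, 0 of the 10 genes were called (adjusted p between 0.404 and 0.972) where 2.66% of all tested genes were (1.76% higher and 0.898% lower in PDX). At an unadjusted p of 0.05 there were 0 of the 10, against 20.6% of all tested genes. The median of the 10 log2 fold changes was -0.04, near the -0.01 of all tested genes.

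The ranges of PDX and Adult were separate for 3 of the 10 genes, Stab2 and Kdr lower and Cdh5 higher in PDX, and 19.9% of all tested genes were separated in the same way. With all mice the log2 fold changes were -0.27 ± 0.22 for Stab2, -0.32 ± 0.21 for Kdr and 0.42 ± 0.31 for Cdh5. These standard errors take in the spread of the Old mice, since the 3 groups share 1 estimate of spread per gene. When the 10 Adult and PDX mice were fitted alone, the same 3 genes were called, with adjusted p of 0.0070 for Stab2 (-0.26 ± 0.06), 0.0351 for Kdr (-0.31 ± 0.10) and 0.0135 for Cdh5 (0.44 ± 0.11). In that fit 29.6% of all tested genes were called, so 3 of 10 is near the share for genes at large. Leaving out O2 and O5 from the joint fit gave adjusted p of 0.0463, 0.0390 and 0.0259 for the same genes, with 24.6% of all tested genes called. In that fit markers of other cells were also called. Higher in PDX were 10 of 12 of Kupffer cells (with 1 lower), 9 of 9 of recruited macrophages and 9 of 9 of neutrophils. So were 6 of 6 of B cells, 5 of 7 of T and NK cells, 3 of 4 of plasma cells and 2 of 4 of platelets. Of stellate cell markers 0 of 9 were higher and 2 lower, and of hepatocyte markers 2 of 8 were higher and 1 lower. Of cholangiocyte markers 1 of 4 was higher, and 0 of 6 erythroid and 0 of 3 lymphatic markers were called. The part of these cells in the 3 calls was not tested. The Kupffer cell marker sum was 1106 to 2302 CPM in PDX against 639 to 933 CPM in Adult. With CPM on library totals 0 of the 10 were separated between PDX and Adult, where 19.2% of all tested genes were.

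The ranges of the other 7 genes in PDX overlapped those in Adult. Stab1 (-0.01 ± 0.12), Gpr182 (-0.03 ± 0.23), Clec4g (-0.04 ± 0.34) and Fcgr2b (-0.06 ± 0.21) differed least from 0, although the intervals are wide. Oit3 had -0.18 ± 0.20, Pecam1 had 0.23 ± 0.15 and Lyve1 had 0.30 ± 0.40. Leaving out both mice gave 0.0074 for Stab1, -0.01 for Gpr182, -0.02 for Clec4g, -0.04 for Fcgr2b, -0.17 for Oit3, 0.25 for Pecam1 and 0.32 for Lyve1, with 0 of these 7 called.

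**Figure D3:**
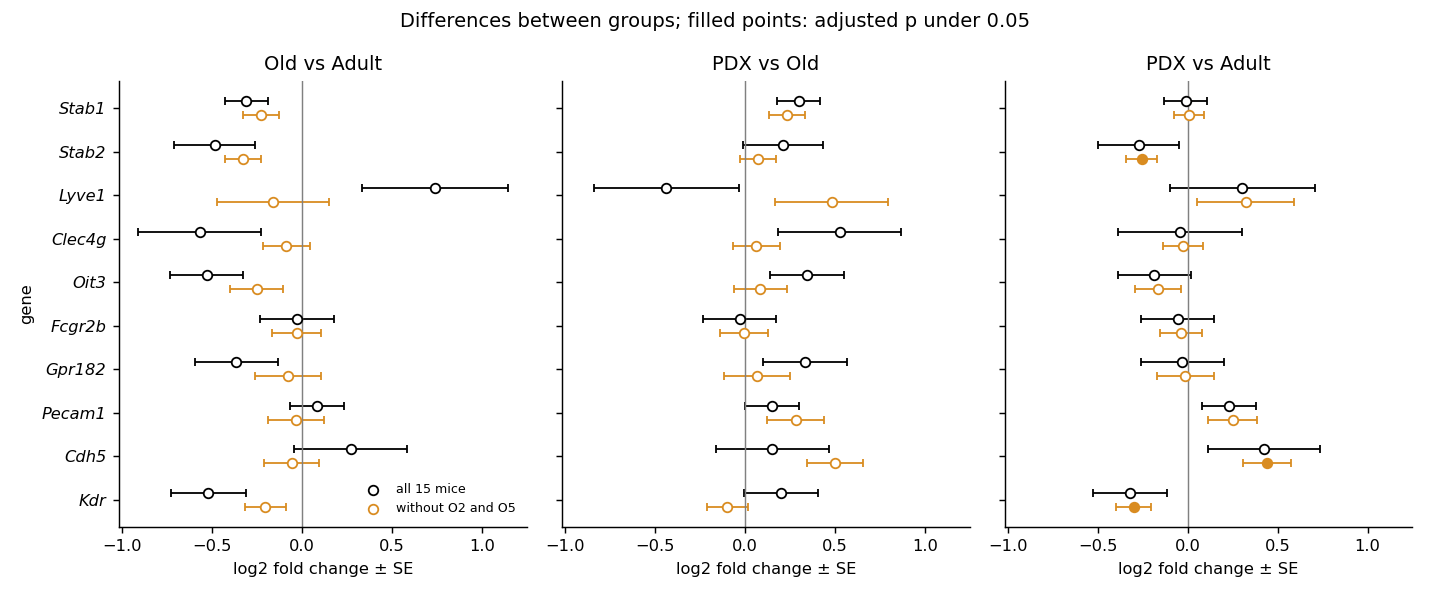
Log2 fold change ± SE (horizontal axis) of the 10 genes in the 3 comparisons, from edgeR with all 15 mice (black) and without O2 and O5 (orange), with filled points for an adjusted p under 0.05. The filled points are Stab2, Cdh5 and Kdr in PDX vs Adult without O2 and O5.

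Genes of related roles were described from 5 lists of 70 endothelial genes, of which 66 could be tested. In Old against Adult 7 were called, in PDX against Old 0 (5 at an unadjusted p of 0.05, and 0 by DESeq2 or limma), and in PDX against Adult 3. Of all tested genes 6.78%, 0% and 2.66% were called in these comparisons. With the compared groups fitted alone, 2 were called in Old against Adult (Esm1 and Nid1) and 16 in PDX against Adult. In those fits 105 of 15040 and 4529 of 15297 (29.6%) of all tested genes were called. The number for age fell to 2 when any Adult mouse was left out and rose to 11 without O1 or without O3. Over all tested genes the calls for age fell likewise, from 1072 to between 156 and 243 without any 1 Adult mouse. They rose to 1588 without O1 and to 2178 without O3. The number for PDX against Adult ran from 1 to 10 over the single mice left out, where 166 to 1766 of all tested genes were called.

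Of 16 other sinusoidal genes, 1 was called lower and 0 higher in Old than in Adult, with a median log2 fold change of -0.27. The called gene was Aqp1, a water channel, with 172 to 192 CPM in Adult and 90.2 to 159.5 CPM in Old (-0.59 ± 0.17, adjusted p = 0.0486), and its call was lost when O2, O4, P1, P2, P5 or any Adult mouse was left out (up to adjusted p = 0.102), and without O2 and O5 together (0.128). In the fit without O2 and O5, Cd36, a fatty acid and thrombospondin receptor, was called higher in Old (0.82, adjusted p = 0.0228) and Flt4, the receptor of VEGF-C, lower (-0.46, adjusted p = 0.0295). In PDX against Adult the lectin gene Cd209b was called at 1.59 ± 0.40 (adjusted p = 0.0486), from 0.230 to 0.547 CPM in Adult to 1.00 to 1.74 CPM in PDX, a level of few reads. That call was also lost when O3, any Adult or any PDX mouse was left out, and held without O2 and O5 (adjusted p = 0.0012). The list's summed level was 7078 CPM in O5 against 1171 to 1743 CPM in the other mice, and 6677 CPM of it was Ctsl, a lysosomal protease that many cells make.

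Of 20 general endothelial genes, which include the receptors Tek, Tie1 and Eng and the transcription factors Erg and Sox17, 0 were called in each comparison (6 at an unadjusted p of 0.05 and 1 by DESeq2 in Old against Adult, 0 by limma) and the median log2 fold change was -0.17 in Old against Adult. Their summed level was 360 to 400 CPM in Adult, 262 to 376 CPM in Old and 312 to 429 CPM in PDX, lowest in O5. Of 16 angiocrine and zonated genes, 1 was called higher in Old, Dkk3, a secreted protein of the Dickkopf family (1.43 ± 0.32, adjusted p = 0.0243, and 0.0361 without O2 and O5). That call was lost when any Adult mouse was left out (up to 0.0654).

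Of 12 genes of continuous capillaries and basement membranes, 10 were tested and 3 were called higher in Old, with 0 lower and a median log2 fold change of 0.58 (2 called and a median of 0.22 without O2 and O5). Esm1 (endocan), a proteoglycan that activated endothelium secretes, had 0.388 to 0.866 CPM in Adult, 3.14, 7.81, 5.96, 1.71 and 10.7 CPM in Old, and 3.61 to 8.36 CPM in PDX. Neither older group overlapped Adult, with log2 fold changes of 3.23 ± 0.45 in Old (adjusted p = 0.0030) and 3.00 ± 0.45 in PDX (adjusted p = 0.0024). Esm1 was called in both comparisons with each of the 15 mice left out in turn and without O2 and O5 (adjusted p = 0.0034 for Old).

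Nid1 (nidogen-1), a linker protein of basement membranes that other liver cells also make, had 17.2 to 20.4 CPM in Adult, 87.2, 75.6, 30.7, 62.7 and 47.8 CPM in Old, and 24.5 to 84.0 CPM in PDX. All 10 older mice were above all Adult mice. Nid1 was higher by 1.67 ± 0.32 in Old (adjusted p = 0.0141) and by 1.58 ± 0.32 in PDX (adjusted p = 0.0161) on the log2 scale, and the second call was lost without A2, A4 or A5. With O2 and O5 left out the adjusted p for Old was 0.0146. The stellate cell marker sum was 630 to 686 CPM in Adult, 518 to 719 CPM in Old and 488 to 718 CPM in PDX. The part of these cells in the Nid1 values was not tested.

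Vwf (von Willebrand factor), which large-vessel and capillarised endothelium stores, had 11.4 to 14.6 CPM in Adult, 21.4, 27.3, 23.2, 12.3 and 20.6 CPM in Old, and 16.4 to 26.6 CPM in PDX. It was called in Old (0.68 ± 0.19, adjusted p = 0.0431) but not without O2 and O5 (adjusted p = 0.100), nor without O2, P2, P3, P4 or any Adult mouse. In PDX against Adult the difference was 0.70 ± 0.19 (adjusted p = 0.0593). The platelet and megakaryocyte marker sum was 129 CPM in O2 and 4.72 to 17.1 CPM in the other Old mice. It was 5.99 to 7.89 CPM in Adult and 5.52 to 27.4 CPM in PDX. The part of these cells in the Vwf values was not tested.

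Of 6 adhesion molecule genes that recruit leukocytes, 4 were tested and 2 were called higher in Old. Icam1 had 14.0 to 23.2 CPM in Adult and 30.6, 90.9, 30.1, 30.8 and 148.9 CPM in Old (1.74 ± 0.40, adjusted p = 0.0264). Vcam1, which Kupffer cells also express, had 12.0 to 23.2 CPM in Adult and 25.4, 240.5, 52.3, 24.0 and 31.8 CPM in Old (2.22 ± 0.56, adjusted p = 0.0337). All 5 Old mice were above Adult for both genes. Both stayed below 0.05 without O2 and O5 (0.0328 and 0.0400) and lost the call without any Adult mouse (up to 0.0721 and 0.0855), with limma (0.0512 and 0.0712) and with the Old and Adult mice fitted alone (0.102 and 0.116).

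**Figure D4:**
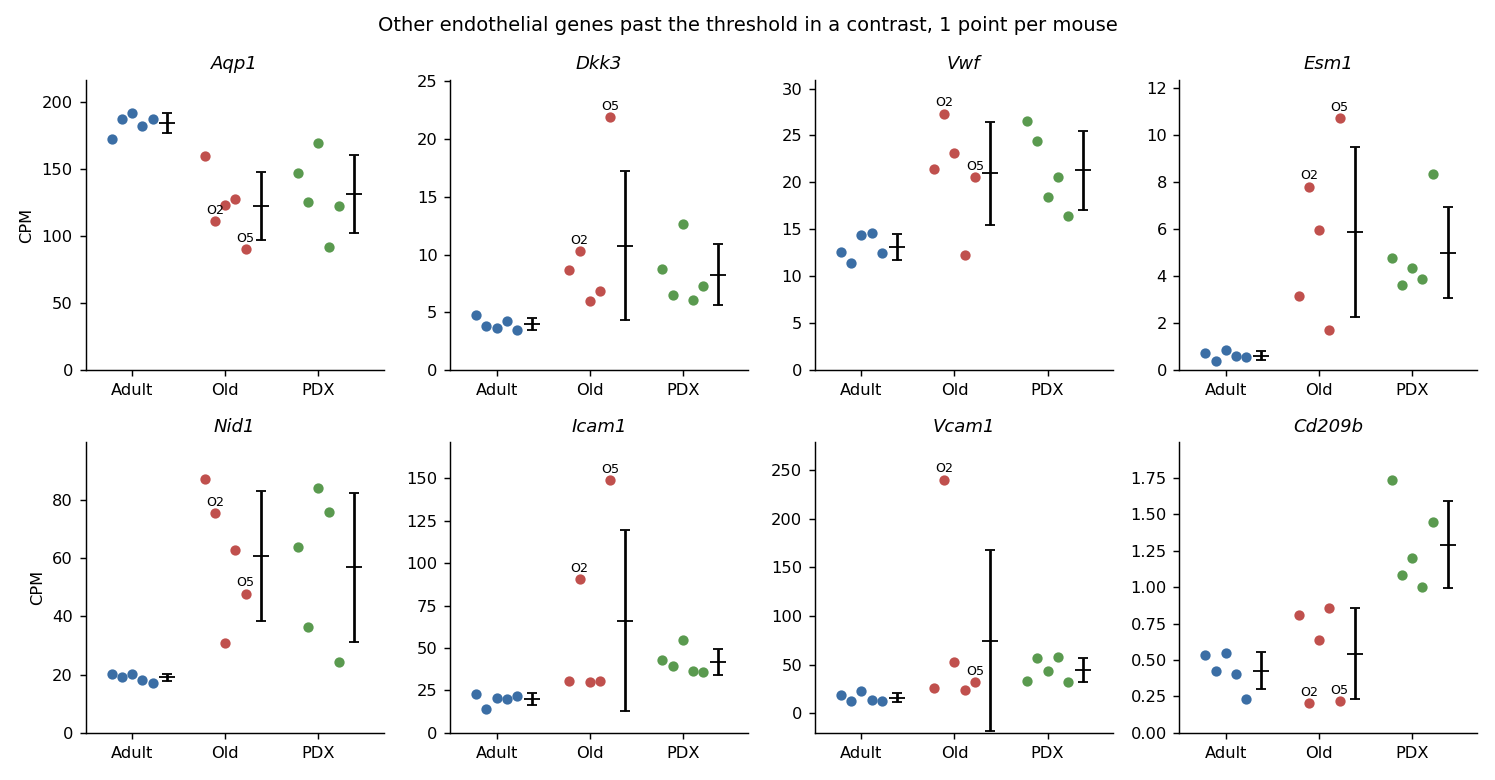
CPM (vertical axis, linear) of the 8 other endothelial genes called in Old vs Adult or PDX vs Adult, 1 point per mouse, with mean ± SD of 5 mice beside the points and O2 and O5 named. Esm1, Nid1, Icam1, Vcam1 and Dkk3 are above the Adult range in all Old mice and Aqp1 is below it, while Vwf overlaps in O4.

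The ligands and partners of the members were read from 3 further lists. Of 13 VEGF and angiopoietin genes, 12 were tested and 0 were called in Old against Adult (7 at an unadjusted p of 0.05, 4 by DESeq2 and 0 by limma). Angpt1, the ligand of Tek, was called higher in PDX than in Adult (2.26 ± 0.48, adjusted p = 0.0218), with 0.871 to 1.37 CPM in Adult and 8.44, 8.11, 3.53, 4.54 and 1.17 CPM in PDX, so that P5 lay inside the Adult range. The call was lost without P1, P2 or any Adult mouse. Of 9 hyaluronan genes 5 were tested and 0 were called in any comparison by edgeR (in Old against Adult 3 at an unadjusted p of 0.05 and 1 by DESeq2, in PDX against Adult 1 and 1). Of 5 Fc receptor genes and partners, Fcgr3 was higher (1.65 ± 0.47, adjusted p = 0.0488, lost without O2, without any Adult and without any PDX mouse) and Fcgrt, the receptor that recycles IgG and albumin, was lower in Old (-0.55 ± 0.13, adjusted p = 0.0281). Fcgrt had 202 to 227 CPM in Adult and 112 to 176 CPM in Old, stayed called without O2 and O5 (adjusted p = 0.0333), and was not called without any 1 of the Adult mice.

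Some markers of other liver cells differed between Adult and the older groups, and their part in the values above was not tested. In Old against Adult, 4 of 9 markers of recruited macrophages and monocytes were called higher (Gpnmb 6.28, Trem2 4.26, Itgam 3.60 and Itgax 3.21 on the log2 scale), with sums of 104 to 155 CPM in Adult, 187.5 to 1125 CPM in Old and 233 to 659 CPM in PDX. Of 9 neutrophil and myeloid progenitor markers 8 were called higher, led by Prtn3 (6.72), Mpo (6.41), Camp (6.20) and Ltf (5.51). Of 6 B cell markers 3 were higher (Ms4a1 3.11, Cd79a 2.56 and Cd79b 2.30), of 4 tested plasma cell markers 1 (Mzb1 3.51), and of 4 tested platelet markers 1 (Pf4 4.93). In O2 the T and NK cell marker sum was 179 CPM, against 2.24 to 29.3 CPM in the other mice. Of 9 stellate cell markers Des was higher (0.85) and Ecm1 lower (-0.65). The Kupffer cell (12 tested), T and NK cell (7), erythroid (6), cholangiocyte (4), lymphatic (3) and hepatocyte (8) lists had 0 called, with 19 of these 40 genes at an unadjusted p of 0.05, 11 called by DESeq2 and 1 by limma. Of the named calls, those of Gpnmb, Trem2, Prtn3, Mzb1 and Ecm1 held with each of the 15 mice left out in turn, Mpo was lost without A5 and Itgam without A2, A3, A4 or A5. The others were lost without any 1 of the Adult mice, and Camp, Ms4a1, Cd79a, Cd79b, Pf4 and Des also without O2. With the Old and Adult mice fitted alone, 1 recruited macrophage, 2 neutrophil and 0 B cell markers were called higher. In that fit Gpnmb (adjusted p = 0.0110) and Prtn3 (0.0171) stayed called. Trem2 (0.0618), Mzb1 (0.0658) and Ecm1 (0.0544) did not, and 105 of all genes were called. When O2 and O5 were both left out, 5 of the 9 recruited macrophage, 3 of the 9 neutrophil and 2 of the 6 B cell markers were called higher in Old, and 0 platelet markers, whose median log2 fold change was 0.18 against 2.58 with all mice. In PDX against Adult the called genes of these lists were Gpnmb, Spp1, Jchain, Elane, Prtn3, Mpo and Ecm1, and in PDX against Old there were 0 in all lists.

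The genes with a pattern over the 15 mice most like the 10 were ranked by their mean Pearson correlation with the members in log2 CPM, among the 12023 genes whose log2 CPM averaged 1 or more. The nearest were Ushbp1 (mean r = 0.62), Tfpi (0.60), Rcn1 (0.60), Sh3bp5 (0.59), Rasgrp3 (0.59), Glul (0.59), F8 (0.58), Wars2 (0.58), Dnase1l3 (0.58) and Dnajc14 (0.58). Of these Tfpi, an inhibitor of coagulation, F8, coagulation factor VIII, and Dnase1l3, a secreted nuclease, were on the list of other sinusoidal genes. On deviations from the group means the list was led by Rcn1 (0.63), Ushbp1 (0.63), Rasgrp3 (0.63), Armcx1 (0.62), Rhbg (0.62), Gimap4 (0.62), Cd55 (0.62), Btnl9 (0.61), Tfpi (0.60) and Prelp (0.60). Among the members, Oit3 and Kdr were closest (r = 0.95), and Lyve1 had a mean r of -0.31 with the other 9. These correlations describe 15 libraries, in each of which all genes share the library's scaling, and they include the low values of O5. They carry no test.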

How the data were processed

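Livers of 15 female mice (5 Adult, 5 Old, 5 PDX) were analysed from the gene-level read counts that the authors deposited, made from pairs aligned to mm10 with STAR 2.6.0c and counted per Ensembl gene with featureCounts (Subread 1.6.2), keeping uniquely aligned proper pairs on the gene's strand and leaving out mitochondrial genes. A second deposited table holds log2 values after the variance-stabilising transformation of DESeq2 1.23.10, and served an alternative test. Columns carry the mouse names of the labels. Symbols, positions and exon lengths came from GENCODE for GRCm38, the assembly of mm10, and 55104 of 55450 identifiers matched.

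Counts were tested with edgeR 4.0.16 (R 4.3.3). Genes were kept by filterByExpr (minimum count 10, minimum total 15), scaled by TMM (factors 0.884 to 1.33) and fitted by the quasi-likelihood method with 1 coefficient per group over all 15 mice. P-values were adjusted by Benjamini-Hochberg over all 15808 tested genes, with calls at 0.05. The SE is the absolute log2 fold change divided by the square root of F. Group values are means ± SD of CPM. Alternatives were DESeq2 1.42.0, limma 3.58.1 on the deposited log2 values, other scalings and filters, fits of the groups compared alone, each mouse left out in turn, and O2 and O5 left out together. The list counts without O2 and O5 and with the groups compared alone were added after the data were seen. The test was checked on simulated counts.

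The 10 members and the 20 other gene lists were chosen with earlier results of these data known. Named genes were the 10 members, in each other list every gene past the threshold or the 4 with the largest fold change where more passed, and the 10 genes closest to the members by correlation. Where a list's gene is named without a value of its own it is background. The dates on which mice were killed were not analysed here.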

Additional observations from a re-analysis of the deposited data

Results flagged for a closer look

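Of 30 sets of 5 mice (10 genes in 3 groups) examined for a single mouse far from the others by Dixon's ratio at the 95% level, 1 met the limit, and chance alone gives about 1 in 20. It was Stab2 in Old, where O5 had 22.5 CPM and the other 4 mice had 53.9 to 75.1 CPM, with a Dixon ratio of 0.725 on the log2 scale. Without O2 and O5 the log2 fold change of Stab2 in Old against Adult was -0.33 instead of -0.49, and the gene passed the threshold in neither fit.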

How the results depend on the processing

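No member was called in Old vs Adult or PDX vs Old under any of the 26 alternative fits, and in PDX vs Adult 3 members were called with the groups fitted alone and 3 without O2 and O5, against 0 in the others. Of 780 recomputed log2 fold changes of members, 740 kept their direction and side of the threshold, 6 passed the threshold, and 34 (for 13 of the fold changes) changed sign, none of them called. Without O2 and O5 the changed signs were in Old vs Adult Lyve1 -0.16, Pecam1 -0.032 and Cdh5 -0.058, in PDX vs Old Lyve1 0.48 and Kdr -0.10, and in PDX vs Adult Stab1 0.0074. With library totals they were Fcgr2b 0.097 in Old vs Adult and Cdh5 -0.036 in PDX vs Old, and with the groups fitted alone Fcgr2b 0.00043 in Old vs Adult. With upper quartile factors they were Fcgr2b 0.00054 in PDX vs Old, and Stab1 0.025 and Gpr182 0.0060 in PDX vs Adult. With limma Fcgr2b was 0.022 in PDX vs Old, and with the CPM filter Stab1 was 0.011 in PDX vs Adult. With each mouse left out in turn, the fold changes that changed sign ranged in Old vs Adult from -0.20 to 0.13 for Fcgr2b, -0.00010 to 0.19 for Pecam1 and -0.22 (without O2) to 0.45 for Cdh5. In PDX vs Old they ranged from -0.19 to 0.15 for Fcgr2b and -0.031 (without O5) to 0.65 for Cdh5. In PDX vs Adult they ranged from -0.064 to 0.034 for Stab1, -0.012 (without P1) to 0.47 for Lyve1, -0.10 to 0.044 for Clec4g, -0.12 to 0.0082 for Fcgr2b and -0.17 to 0.050 for Gpr182.

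Members with separate ranges numbered 0 with CPM on library totals in Old vs Adult and in PDX vs Adult (7.56% and 19.2% of all tested genes). With single mice of the 2 groups left out they were 2 to 4 (4 without A1) in Old vs Adult, 0 to 1 (1 without P4) in PDX vs Old and 3 throughout in PDX vs Adult, while 9% to 13.4%, 0.468% to 2.09% and 21.5% to 27.1% of all tested genes were separated. Of the other endothelial genes, DESeq2 called 14 of the 70 (13 of the 66 that edgeR tested) in Old vs Adult and 7 in PDX vs Adult, limma 3 and 3, the fit without O2 and O5 called 15 in PDX vs Adult, and leaving out single mice gave 2 to 11 in Old vs Adult and 1 to 10 in PDX vs Adult. Over all genes the calls in Old vs Adult were 1072 in the joint fit, 2642 with DESeq2, 651 with limma and 105 with the groups alone, and in PDX vs Adult 420, 1401, 402 and 4529. Without O2 and O5 they were 1158 in Old vs Adult and 4004 in PDX vs Adult. With single mice left out they ran from 156 to 2178 in Old vs Adult and from 166 to 1766 in PDX vs Adult. The cause of these changes was not tested.

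Mice share replicate numbers across groups, but not every same-numbered pair deviated together (correlations from -0.215 to -0.110 in Old vs Adult, -0.039 to 0.285 in PDX vs Old and -0.047 to 0.146 in PDX vs Adult, over 0.1 in 0, 3 and 1 of 5 pairs), so the numbers were not taken to pair them. With the replicate block, 0 members were called in each comparison and 237 and 316 genes in all in Old vs Adult and PDX vs Adult.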
